A study of Homo sapiens with 6 samples.

Results

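The genes described here encode the constitutive proteasome, its regulatory particles and its assembly factors. They are the transcripts whose upper-case symbol is PSMA, PSMB, PSMC, PSMD, PSME, PSMF or PSMG followed by a number, or is ADRM1 or POMP, without the immunoproteasome genes PSMB8 and PSMB9. This gave 48 genes of 19871 symbols and 238 transcripts of 92866. PSMB10, PSME1 and PSME2, which interferon is known to induce, were kept and are described as a group of their own.

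RNA came from HCT116, an established human colorectal cancer cell line, and was sequenced as strand-specific libraries in 3 groups with 2 libraries per group. The groups were a negative control (NC), cells overexpressing the long non-coding RNA GAS5 (GAS5) and cells given a YAP-specific siRNA (siYAP). All were cells of the same line. The labels name a GAS5 plasmid in the treatment description but list NC, GAS5 and siYAP together under siRNA, and what the NC cells received is not given beyond that name. The tables hold a single mean per group and transcript, so every value below is the authors' mean, the spread between libraries is not known and no test between groups was possible.

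The proteasome is the protease that degrades ubiquitin-tagged proteins in the cytoplasm and nucleus. Its barrel-shaped core is built from alpha rings, which gate the entry, and beta rings, which hold the active sites. A regulatory particle binds the end of the barrel: its base holds a ring of ATPases that unfold the substrate, and its lid removes the ubiquitin chain. Other caps (the PSME proteins) and an inhibitor (PSMF1) can bind the same end, and dedicated chaperones put the parts together. Cells coordinate these genes through the transcription factor NRF1 (NFE2L1), which binds antioxidant response elements in their promoters and is known to act when proteasome activity is short.

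Promoter sequences from RefSeq (GRCh38.p14), covering 250 bases before to 50 bases after each transcription start, were found for 42 of the 48 genes. PSMA7, PSMB1, PSMB6, PSMB7, PSMD4 and PSMG3 had no entry. The antioxidant response element core TGACNNNGC, searched on both strands, was present in 16 of 51 member promoters (31.4%) and in 13.3% of all 35116 promoters. Matches are shown for 5 of the matched genes that were at least 25% higher in GAS5 than in NC. Each is in a window of 30 bases on the gene's strand with the match in capitals. These 5 were picked by that rise. In GAS5 against NC the 15 compared genes with a match had a median log2 of 0.22, and the 25 without 0.30. In PSMC4 the match lies on the other strand.
PSMC4, chr19:39971182-39971211 (+): acagaggccgGCTTGGTCActatggaggag
PSMB3, chr17:38752627-38752656 (+): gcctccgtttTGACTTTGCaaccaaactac
PSME2, chr14:24146766-24146795 (-): ccctggactgTGACCCAGCcagcaccgcct
PSMD3, chr17:39980760-39980789 (+): tcccctttgtTGACTCGGCcatcggcctgc
PSMD1, chr2:231056887-231056916 (+): ggcggcctgaggaggcgacTGACTGAGCag

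The interferon-stimulated response element core (GAAA, any 2 bases and GAAA, either strand) was present in 6 of the 51 member promoters (11.8%) and in 3.57% of all promoters. Its genes were PSMA4, PSMB4, PSMB10, PSME1, PSME2 and PSMG4. All 3 interferon-linked members were among them, and their matches are shown because these genes parted from each other in the groups below. The match began 21 bases upstream of the start in PSMB10 and 28 bases upstream in PSME2, while in PSME1 it lay just downstream of the start on the other strand. In PSMA4, PSME1 and PSME2, which held both motifs, the matches did not overlap.
PSMB10, chr16:67936852-67936881 (-): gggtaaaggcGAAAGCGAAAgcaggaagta
PSME2, chr14:24146619-24146648 (-): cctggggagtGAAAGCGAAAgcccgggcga
PSME1, chr14:24136189-24136218 (+): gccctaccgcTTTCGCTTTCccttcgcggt

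Some facts of all 3 groups bear on the values. The mean total was 27206123 counts in NC, 25521577 in GAS5 and 26298036 with siYAP. YAP1, the target of the siRNA, had 3480 counts in NC, 2679 in GAS5 and 1444 with siYAP, so it was 2.27-fold lower in siYAP than in NC. GAS5 itself, a non-coding RNA, was not analysed here. Of the 6 epithelial marker genes looked at, EPCAM, KRT8, KRT18, KRT19 and CDH1 were present at 33.0 to 1700 FPKM, and VIL1 at 6 counts or fewer. The leukocyte gene PTPRC was at 0 counts in all groups and the endothelial gene PECAM1 at 6 or fewer, while COL1A1 ranged from 378 to 556, DES from 102 to 252 and VIM from 94 to 128 counts.

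Proteasome transcripts took 0.584% of all counts in NC, 0.693% in GAS5 and 0.544% with siYAP. The GAS5 share was the highest of the 3 and the siYAP share the lowest. In RNA from whole cultures, less RNA per cell and fewer cells of a kind cannot be told apart. Of the 48 genes, 46 had enough counts to be compared. PSMA8, the alpha subunit of the testis, had no count in any group, which allows up to 3 counts over the libraries of a group, or 5.88e-06% of the counts in GAS5. PSMB11, the thymus beta subunit, was at 0.5 counts in NC, 2 in GAS5 and 0.5 with siYAP.

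**Figure D1:**
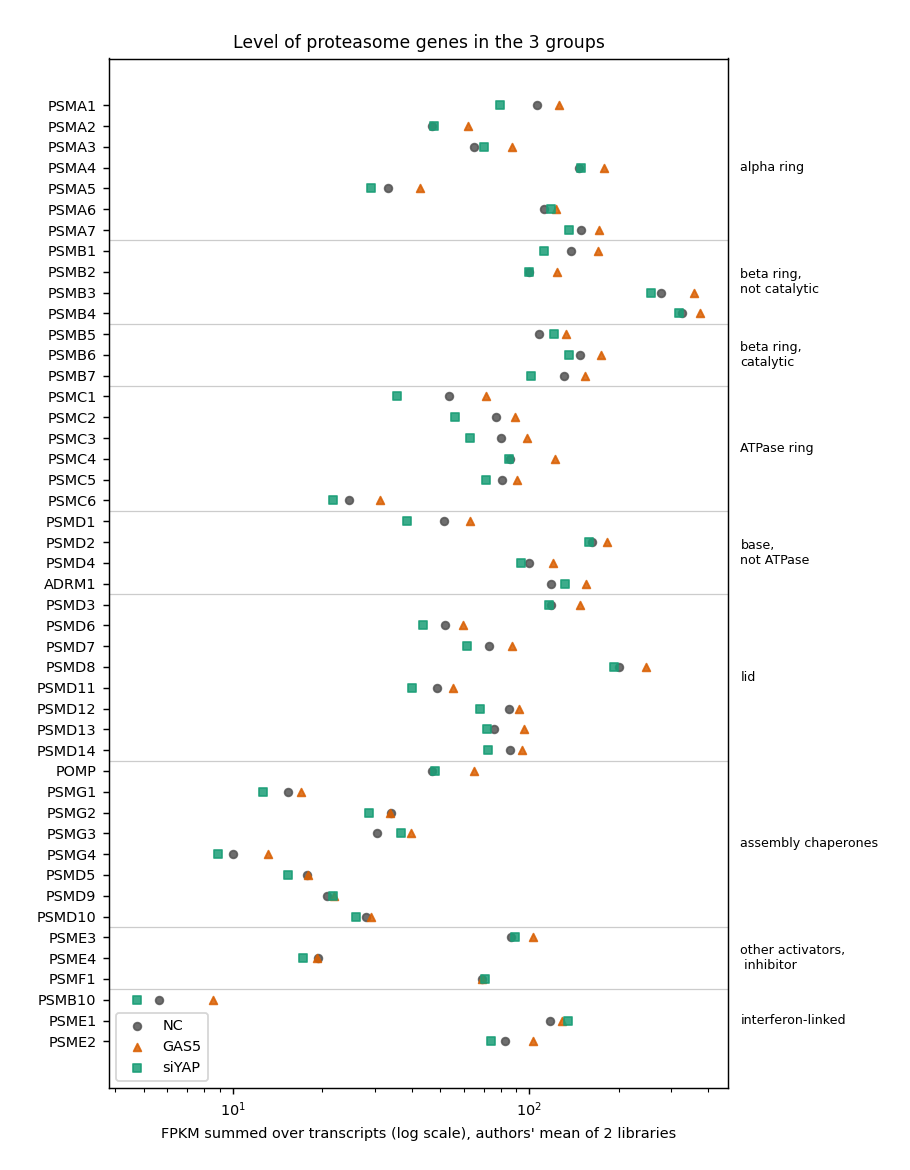
FPKM of each compared proteasome gene, summed over its transcripts, on a log axis, grouped by role, with NC as circles, GAS5 as triangles and siYAP as squares. Each point is the authors' mean of a group. The beta subunit PSMB4 is highest in NC at 326 FPKM and PSMB10 lowest at 5.61 FPKM. The GAS5 triangle lies to the right of the NC circle for most genes, as for PSMC4 (86.1 in NC and 122 in GAS5).

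In GAS5 cells the RNA of nearly all proteasome genes was slightly more abundant than in NC. Protein level and activity of the proteasome are not part of these data. The log2 fold change of the gene count was above 0 in 45 of 46 genes, with PSMF1 the exception. With scaling by total counts PSME4 (-0.01) and PSMG2 (-0.02) were also just below 0. Its median was 0.29 (1.22-fold), and its quartiles were 0.21 and 0.36. The range, from -0.03 to 0.64, was narrow, and no member differed by 2-fold, beside 3.09% of all genes. For all 13379 genes compared the median was 0.00. Limits of 25% higher and 20% lower, which are log2 0.32 in either direction, were used for counts of genes. Past them 19 members were higher and 0 lower, beside 13.2% of all genes higher and 11.9% lower. The limit fell inside the bulk of the members, since 15 of them lay within 0.05 log2 units of it. The 95% counting interval lay above 0 in 42 members and below 0 in 0, beside 32.5% and 31.3% of all genes. Among the 44 members with at least 500 mean counts 17 were past the upper limit and 0 past the lower, beside 8.6% and 6.73% of the 7918 genes with that depth. The intervals cover counting error only and leave out the unknown spread between libraries.

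In siYAP cells the same genes lay on both sides of NC. The median log2 fold change was -0.07, with 15 members above 0 and 31 below, and the range was from -0.54 to 0.33. Past the same limits 1 member was higher and 5 were lower, beside 15.9% of all genes higher and 16.8% lower, so the member shares did not exceed those of all genes. The counting interval lay above 0 in 11 members and below 0 in 22, beside 34.6% and 35.1% of all genes. Among genes of at least 500 mean counts 11.8% were higher and 13.0% lower, beside the same 1 and 5 members. With scaling by total counts the split was 0 higher and 5 lower, and with FPKM 0 higher and 6 lower. Directly compared, GAS5 exceeded siYAP in 43 of 46 members, with a median of 0.35 (1.27-fold). There 26 members were past the upper limit and 0 past the lower, beside 20.2% and 20.3% of all genes, or 24 and 0 beside 15.9% and 16.4% at 500 mean counts or more. The interval lay above 0 in 40 members and below 0 in 2, beside 36.5% and 36.2% of all genes. No member differed by 2-fold in these comparisons either, beside 2.26% and 4.65% of all genes. The 3 comparisons share groups in pairs, so they are not separate evidence.

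**Figure D2:**
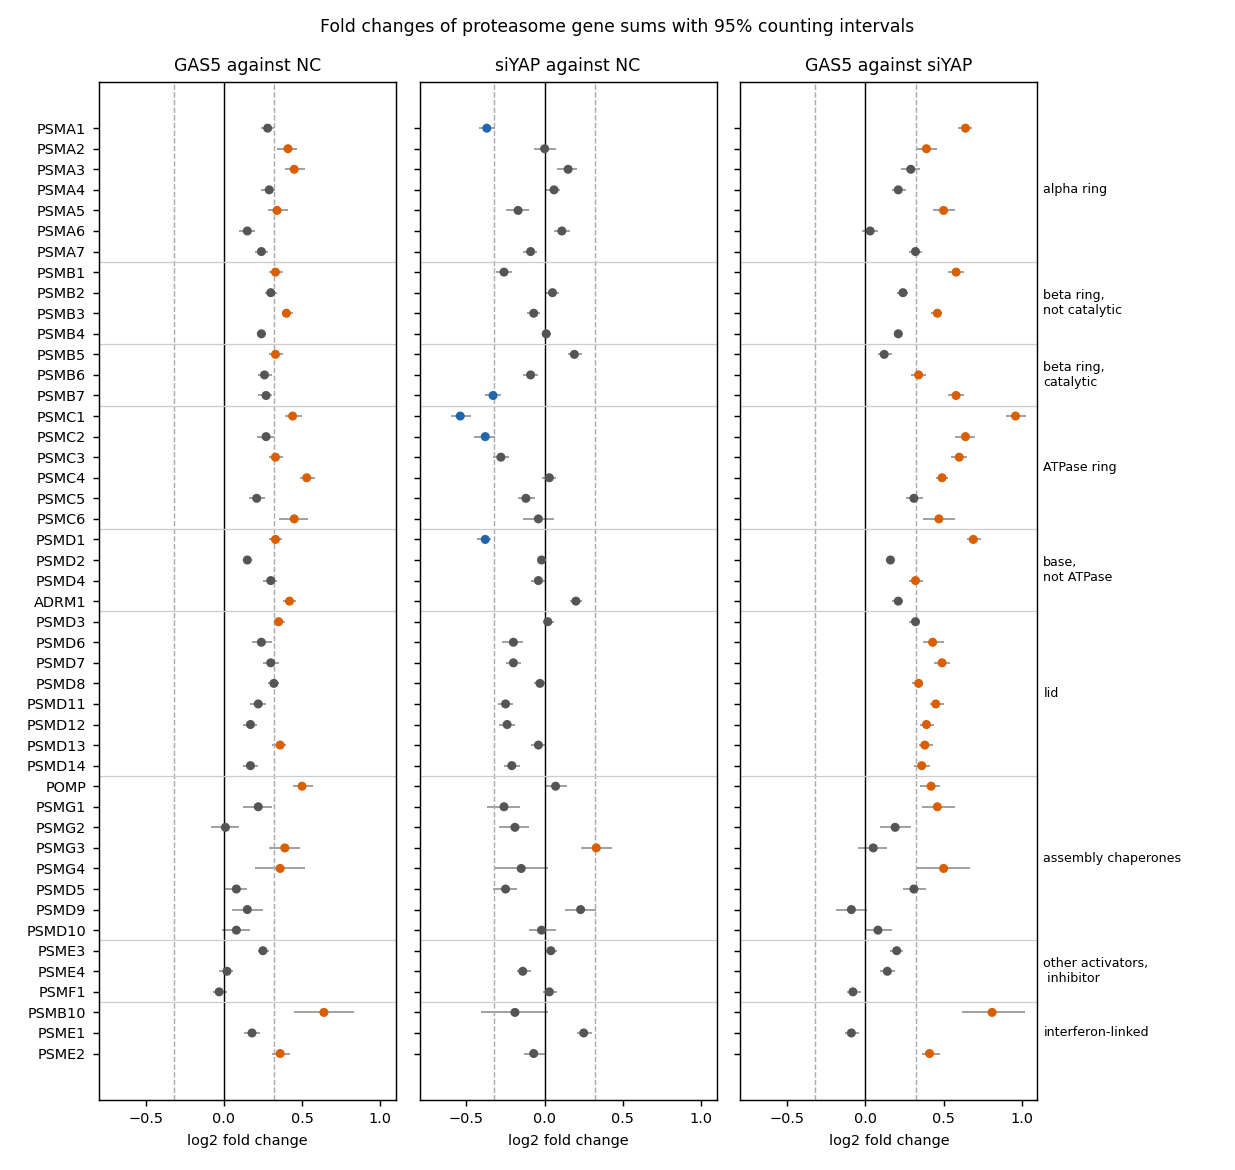
Log2 fold change of each compared proteasome gene in the 3 comparisons, with 95% counting intervals as horizontal bars. Dashed lines mark the limits of 25% higher and 20% lower, and genes past them are orange when higher and blue when lower. GAS5 against NC holds 19 orange and 0 blue points, siYAP against NC 1 orange and 5 blue, and GAS5 against siYAP 26 orange and 0 blue.

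Transcript length moved with the fold changes, and most proteasome genes have short transcripts. Genes with at least 500 mean counts were split into 3 equal groups by counts per FPKM, a measure of transcript length, and 37 of the 44 members with that depth fell in the shortest. In GAS5 against NC the median log2 fold change of all genes was 0.09 in the shortest group, 0.01 in the middle and -0.09 in the longest. The 37 short members had a median of 0.30 in that comparison, and 16 of them were past the upper limit, beside 13.2% of short genes. In siYAP against NC the median of all short genes was 0.08 and that of the short members -0.04. In GAS5 against siYAP short genes had a median of 0.01, and the short members 0.36. The part of length in the member values was not tested beyond these groups.

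**Figure D3:**
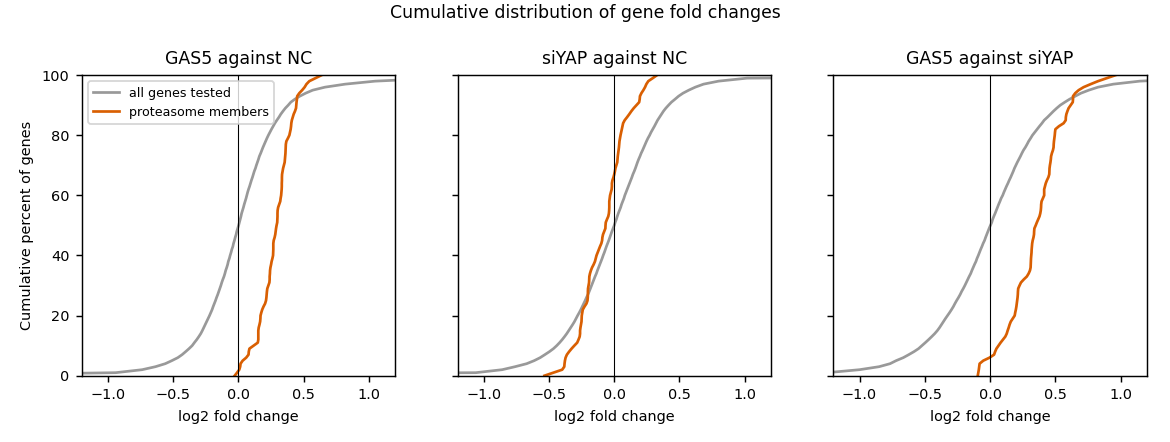
Cumulative percent of genes by log2 fold change in the 3 comparisons, for all genes compared (grey) and the 46 proteasome genes (orange). In GAS5 against NC the member curve crosses 50% at 0.29 and the curve of all genes at 0.00. In siYAP against NC the member curve crosses at -0.07.

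The ATPase ring of the base, whose subunits pull the substrate into the core, had the largest median of the constitutive groups. Of its 6 genes 4 were at least 25% higher in GAS5 than in NC, beside 13.2% of all genes, with a median log2 of 0.39. They were PSMC1, PSMC3, PSMC4 and PSMC6. PSMC3 was near the limit at 0.33 and had 0.11 with only its most abundant transcript. PSMC6 had 0.45, but 0.30 with Ensembl transcripts only and 1.44 with only its most abundant transcript. PSMC4 (chr19:39971005-39981441, plus strand, GENCODE 29 on GRCh38) was at 86.1 FPKM in NC, 122 in GAS5 and 85.3 in siYAP. It was thus 1.45-fold higher in GAS5 (log2 0.53, counting interval 0.49 to 0.58) and level with NC in siYAP. PSMC1 (chr14:90256495-90275429, plus strand) was at 53.4 FPKM in NC, 71.6 in GAS5 and 35.6 in siYAP. Among the members it had the largest difference between GAS5 and siYAP, being 1.36-fold higher in GAS5, 1.45-fold lower in siYAP and 1.95-fold higher in GAS5 than in siYAP. The annotation lists 13 PSMC1 pseudogenes, and how reads shared with such copies were assigned is not given in the sources used here, so its counts are uncertain. Pseudogenes are also named for PSMA2, PSMA3, PSMA6, PSMB3, PSMB7, PSMD4, PSMD7, PSMD8, PSMD10, PSMD12 and PSME2. PSMC2 was at 77.4 FPKM in NC, 89.5 in GAS5 and 56.0 in siYAP, and PSMC3 at 80.2, 97.8 and 63.1. Both followed the same order of groups, though only PSMC2 was past the lower limit in siYAP. PSMC5 had the smallest difference of the ring in GAS5, with log2 0.21, and -0.12 in siYAP.

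The other base subunits bind the ATPase ring and receive ubiquitin. ADRM1, a ubiquitin receptor, was at 118 FPKM in NC, 155 in GAS5 and 132 in siYAP, so it exceeded NC in both, by log2 0.42 and 0.20. PSMD4, the other classic ubiquitin receptor, was at 99.4 FPKM in NC, 120 in GAS5 and 94.0 in siYAP. PSMD1, a large scaffold subunit (chr2:231056864-231172827, plus strand), was at 51.5 FPKM in NC, 63.2 in GAS5 and 38.5 in siYAP. With ADRM1 it was past the upper limit in GAS5 (log2 0.33) and was 1.30-fold lower in siYAP. Its partner scaffold PSMD2 differed little, at 163 FPKM in NC, 182 in GAS5 and 159 with siYAP.

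The lid genes showed small differences of one direction per comparison, apart from PSMD3 in siYAP. Its 8 genes had log2 fold changes from 0.17 to 0.36 in GAS5 against NC, with 2 past the limit (PSMD3 at 0.35 and PSMD13 at 0.36), and from -0.25 to 0.02 in siYAP against NC, with none past it. In GAS5 against siYAP 7 of the 8 were past the upper limit, beside 20.2% of all genes. Beside the lid counts against NC stood 13.2% of all genes higher in GAS5, and 15.9% higher and 16.8% lower in siYAP. PSMD14, the enzyme that cuts off the ubiquitin chain, was at 86.1 FPKM in NC, 94.4 in GAS5 and 72.6 in siYAP, with the highest level in GAS5. SEM1, a small lid subunit whose symbol the rule does not take in, went the other way in GAS5, at 388 counts in NC, 316 in GAS5 and 265 with siYAP (log2 -0.18 and -0.46 against NC).

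In the core, all compared alpha and beta genes were above NC in GAS5. The 7 compared alpha genes had a median log2 of 0.29 in GAS5. Past the limit were 3 of them, PSMA2 (0.41), PSMA3 (0.45) and PSMA5 (0.34), beside 13.2% of all genes. PSMA6 was the flattest alpha gene, at 112 FPKM in NC, 123 in GAS5 and 118 in siYAP, and its counting interval included 0 in GAS5 against siYAP. PSMA1 was 1.29-fold lower in siYAP (106 FPKM in NC, 126 in GAS5 and 79.7 in siYAP). Of the 4 beta genes without an active site, PSMB1 (0.33) and PSMB3 (0.40) passed in GAS5, beside the same share of all genes.

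The 3 catalytic beta genes had similar mean fold changes in GAS5 and differing ones in siYAP. PSMB5, the chymotrypsin-like subunit and main target of bortezomib, was at 108 FPKM in NC, 133 in GAS5 and 121 in siYAP. PSMB6, the caspase-like subunit, was at 148, 174 and 136 FPKM in the same order. PSMB7, the trypsin-like subunit, was at 131, 154 and 101 FPKM. Against NC their log2 fold changes in GAS5 were thus 0.33, 0.26 and 0.27, with counting intervals that overlapped (0.29 to 0.38, 0.22 to 0.31 and 0.22 to 0.31). In siYAP they were 0.19, -0.09 and -0.33, with intervals that did not overlap (0.15 to 0.24, -0.14 to -0.04 and -0.38 to -0.28). These intervals leave out the unknown spread between libraries, so whether the 3 genes differ beyond it was not tested. In siYAP against NC they lay above 0 in 34.6% of all genes and below 0 in 35.1%. PSMB7 was the only catalytic gene past a limit in siYAP, beside 16.8% of all genes lower.

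The assembly factors were mostly expressed at lower levels than the subunits and differed among themselves. Their NC levels ran from 9.98 to 46.8 FPKM, and their log2 fold changes from 0.01 to 0.50 in GAS5. POMP, an assembly chaperone of the core, was at 46.8 FPKM in NC, 64.9 in GAS5 and 48.0 in siYAP, or 1.42-fold higher in GAS5. PSMG3 (chr7:1567330-1571005, minus strand), a chaperone of the alpha ring, was at 30.7 FPKM in NC, 39.9 in GAS5 and 36.9 in siYAP. It was the only member at least 25% higher than NC in siYAP (log2 0.33, interval 0.23 to 0.43), close to its 0.39 in GAS5. Its partner PSMG4 was at 9.98 FPKM in NC, 13.1 in GAS5 and 8.86 in siYAP. PSMG2, of the other alpha-ring pair, did not differ from NC in GAS5 beyond counting error (log2 0.01, interval -0.08 to 0.10), and PSMG1 had 0.22. The base chaperones PSMD5, PSMD9 and PSMD10 had log2 values of 0.08, 0.15 and 0.08 in GAS5. In siYAP PSMD5 was at -0.25 and PSMD9 at 0.23, on opposite sides of NC.

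The alternative caps and the inhibitor lay closer to NC. PSME4, the large cap protein, was at 19.4 FPKM in NC, 19.2 in GAS5 and 17.2 in siYAP. PSMF1, the inhibitor of the core (chr20:1113263-1189415, plus strand), was at 69.3, 69.0 and 71.0 FPKM. Its log2 fold change in GAS5 was -0.03 with an interval from -0.07 to 0.02, so it was the only member below 0. PSME3, the nuclear cap, lay between, at 86.5, 103 and 89.5 FPKM. None of the 3 was past a limit in any comparison, and most of all genes were not either. In GAS5 against NC 13.2% of all genes were higher and 11.9% lower. The shares were 15.9% and 16.8% in siYAP against NC, and 20.2% and 20.3% in GAS5 against siYAP.

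The interferon-linked members split. PSMB10, the immunoproteasome counterpart of PSMB7 (chr16:67934502-67937087, minus strand), was at 5.61 FPKM in NC, 8.57 in GAS5 and 4.75 in siYAP, far below PSMB7 in every group. It had the largest log2 fold change of all members in GAS5 against NC, 0.64 with an interval from 0.45 to 0.83. PSME2 was at 82.8 FPKM in NC, 103 in GAS5 and 74.4 in siYAP. PSME1, which forms a single cap ring with PSME2 and is its neighbour on chromosome 14, was at 117, 129 and 135 FPKM, so its highest level was in siYAP and PSME2's in GAS5. With only the most abundant transcript of the gene, the log2 fold change of PSME2 in siYAP went from -0.07 to 0.21. Without these 3 genes the counts were 17 higher of 43 in GAS5, beside 13.2% of all genes, with the median still at 0.29.

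Other genes of the interferon response were looked at beside these members. Of 6 reported here, 5 were at least 25% higher in GAS5 than in NC, beside 13.2% of all genes, namely PSMB9, IRF1, NLRC5, TAP1 and TAP2. In siYAP 2 of the 6 were past the upper limit too (PSMB9 at 1.41-fold and NLRC5 at 1.32-fold), and PSMB8 was past the lower. Beside this stood 15.9% of all genes higher and 16.8% lower. NLRC5, an activator of antigen presentation genes, had 268 counts in NC, 460 in GAS5 and 334 with siYAP. TAP2, of the peptide transporter, had 2116, 2768 and 1955 counts. PSMB9, left out by the rule as an immunoproteasome subunit, had 242 counts in NC, 434 in GAS5 and 322 with siYAP. PSMB8, its partner, had few counts, at 13.5, 11.0 and 9.0. Its counting interval in siYAP against NC (log2 -1.35 to 0.35) included 0.

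Genes that work with the proteasome were counted in the same way. Of 24 ubiquitin genes, shuttle factors, proteasome-bound enzymes and regulators, 2 were at least 25% higher in GAS5 than in NC (VCP, the unfoldase that hands substrates on, and PAAF1, a base chaperone, both at log2 0.32) and 1 was lower, beside 13.2% and 11.9% of all genes, with a median of 0.05. The lower gene was NFE2L1, the factor that drives proteasome genes, at 10140 counts in NC, 7115 in GAS5 and 10160 with siYAP (1.31-fold lower in GAS5). In siYAP 0 were higher and 4 lower, beside 15.9% and 16.8% of all genes, which for the lower genes is close to the background share. The 4 were RAD23B (log2 -0.56), a shuttle factor, UCHL5 (-0.49), a ubiquitin hydrolase of the base, SEM1 (-0.46) and KIAA0368 (-0.38). Over all 24 genes the median log2 in siYAP against NC was 0.08. Members whose promoter held the antioxidant response element core had a median log2 of 0.22 in GAS5 against NC (15 genes), and those without it 0.30 (25 genes). For the interferon-stimulated element the medians were 0.32 with it (6 genes) and 0.29 without (34 genes). A match is a string of letters in the window and not a shown binding site.

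Single transcripts of the members were compared at a limit of 2-fold. In GAS5 against NC 22 of 143 compared member transcripts differed by 2-fold or more (16 higher and 6 lower), beside 20.1% of all transcripts (10.6% higher and 9.48% lower). In siYAP against NC 17 of 136 did (6 higher and 11 lower), beside 20.8% (9.41% and 11.4%). Of the 5 left with at least 10 mean counts in each group 3 were higher and 2 lower, and the share of all transcripts at that depth was not computed. In GAS5 against siYAP 27 of 140 differed by 2-fold or more (24 higher and 3 lower), beside 22.6% (12.5% and 10.1%). Most of these were sparse, since only 5, 4 and 7 of them reached 100 mean counts in either group. The best covered was the PSMC3 transcript ENST00000619920, at 806 counts in NC, 1205 in GAS5 and 551 with siYAP, or 2.15-fold higher in GAS5 than in siYAP. ADRM1 transcript ENST00000491935 rested on 31.2 counts in NC, 133 in GAS5 and 141 with siYAP, a minor form with 2.72% of the gene's counts at most. Minor transcripts of 2 other genes were more than 2-fold higher in GAS5 than in NC, PSMB5 ENST00000425762 (49.8 and 130 counts) and PSMD9 ENST00000261817 (58.0 and 128 counts). The others that reached 100 counts, apart from those of PSMC6 described next, were higher in GAS5 than in siYAP. PSMC4 ENST00000455878 had 339 counts in GAS5 and 152 in siYAP, PSMD4 ENST00000368881 had 324 and 151, and the assembled PSMC2 transcript TCONS_00128718 had 248 and 114. In PSME3 ENST00000541124 had 156 and 59.2 counts, while ENST00000545225 was listed at 0 in siYAP beside 102 counts in GAS5.

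Counted by single transcript models, the mixture within a gene differed between groups in 2 members. Among 42 members with at least 500 mean counts and more than 1 transcript, a transcript's share of its gene moved by 10 percentage points or more in 1 gene in GAS5 against NC, in 2 in siYAP against NC and in 2 in GAS5 against siYAP. Beside this stood 14.9%, 14.5% and 15.5% of all such genes. In PSMC3 the share of ENST00000298852 was 31.1% in NC, 30.5% in GAS5 and 48.1% with siYAP, while that of ENST00000602866 was 42.6%, 36.3% and 29.3%.

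The other gene was PSMC6, an ATPase of the base (chr14:52707172-52728587, plus strand), whose sum was 802 counts in NC, 1007 in GAS5 and 736 with siYAP. ENST00000606149 had 146 counts in NC, was listed at 0 in GAS5 and had 2.95 in siYAP. ENST00000612399 had 151, 378 and 506 counts, which was 18.8%, 37.5% and 68.7% of the gene. These models hold 14 exons with the same junctions, and all 1560 bases of the first lie within the 1590 bases of the second, which adds 4 bases at the 3′ end and 26 at the 5′ end. The added 5′ bases, in capitals with the 4 shared bases that follow, lie at chr14:52707178-52707203 on the plus strand of GRCh38 and open the coding region of the longer model.
ENST00000612399 start: ATGGCCATTCCCGGCATCCCCTATGAgaga
The pair differs only in these 26 bases and the 4 at the other end. The sum of the pair was 297 counts in NC, 378 in GAS5 and 509 with siYAP, so it was highest in siYAP while the gene sum was lowest there. The assembled transcript TCONS_00039176, which carries no Ensembl identifier, went the other way, with 268 counts in NC, 399 in GAS5 and 46.5 with siYAP. The direction of the gene between GAS5 and siYAP rested on it. In GAS5 against siYAP the log2 fold change of PSMC6 was 0.47 with all transcripts and -0.17 with Ensembl transcripts only, and in siYAP against NC it went from -0.04 to 0.45. In GAS5 against NC PSMC6 was at 0.45 with it and 0.30 without it, short of the limit.

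**Figure D4:**
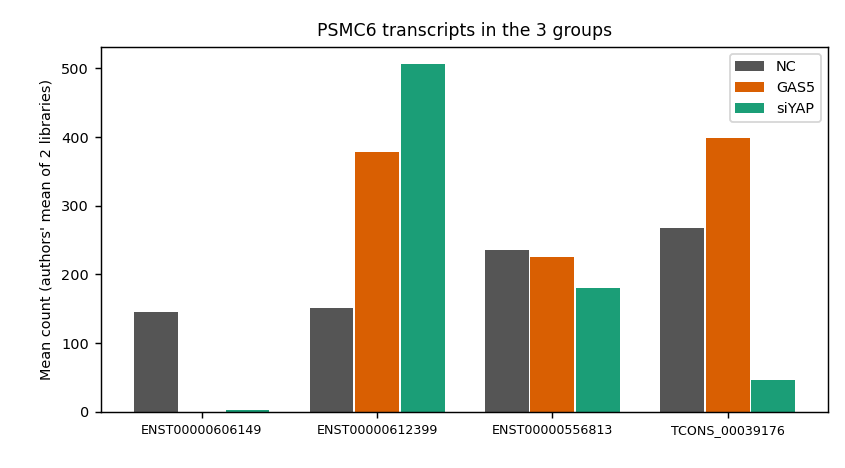
Mean counts of the 4 main PSMC6 transcripts in NC, GAS5 and siYAP, as bars from 0. ENST00000606149 has 146 counts in NC, 0 in GAS5 and 2.95 with siYAP, while ENST00000612399 has 151, 378 and 506. TCONS_00039176 is at 46.5 counts in siYAP.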

How the data were processed

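Total RNA of HCT116 cells was made by the authors into strand-specific (dUTP) libraries. The submitters' processing notes name TopHat2 2.1.1. The counting tool and the genome build are not given in the sources used here.

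The deposited expected counts are estimated counts per mRNA transcript, which the authors averaged within each group. The deposited FPKM values are scaled by transcript length and library size and averaged likewise, with 0 written as 0.001. The authors' log2 fold change, p-value and FDR columns were not used.

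The tables were joined by transcript identifier, symbols were read from the siYAP table and counts were summed by symbol. The 339 transcripts without a symbol held 0.224%, 0.195% and 0.209% of the counts in NC, GAS5 and siYAP. Each pair of group means was scaled by TMM (edgeR 4.0.16, R 4.3.3) after a low-count filter (filterByExpr, minimum count 10), and a prior count of 2 went into each log2 fold change. edgeR was used for scaling only: the planned count test needs a value per library, and the tables hold group means. The 95% Wilson intervals take the counts behind both means and cover counting error only. Descriptive limits were 25% higher or 20% lower for genes and 2-fold for transcripts, and transcripts are named where they reached 100 mean counts in either group. Genes were named as the 4 largest and 4 smallest fold changes per comparison and by role. Genes and sequences were placed with GENCODE 29 (GRCh38) and RefSeq promoters (GRCh38.p14). 12 members have pseudogenes named after them.

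Members, lists and limits were chosen with earlier results of these data known. The length groups, the comparison among genes of at least 500 mean counts, transcript shares and promoter motifs, which were kept from a wider search after matches had been seen, were added after seeing the data. Other settings were scaling by DESeq2 1.42.0 size factors or total counts, no filter, a prior count of 0.5, ratios of FPKM, Ensembl transcripts only and the most abundant transcript only. An item of the interferon list and a promoter window are not reported here.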

Additional observations from a re-analysis of the deposited data

How the results depend on the processing

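Each of the 46 members was carried through 7 settings in each comparison, and 883 of these 966 values stayed within the counting interval. The medians kept their direction under these settings, and so did the members past a limit, except PSMC6 in GAS5 against siYAP. Its log2 fold change went from 0.47 to -0.17 with Ensembl transcripts only and to -0.38 with only the most abundant transcript. Members past the limits of 25% higher or 20% lower ranged from 13 to 20 in GAS5 against NC, from 5 to 9 in siYAP against NC and from 25 to 30 in GAS5 against siYAP. The median log2 fold change in siYAP against NC was -0.13 with the ratio of summed FPKM instead of -0.07, and that in GAS5 against siYAP 0.42 with only the most abundant transcript instead of 0.35. Transcript counts depended on the low-count filter. Without it 47, 35 and 47 of 238 member transcripts passed 2-fold in GAS5 against NC, siYAP against NC and GAS5 against siYAP. With at least 10 mean counts in each group 8, 5 and 11 did, in place of 22, 17 and 27. Of 121 member transcripts, the stricter filter left 8 higher and 0 lower in GAS5 against NC, 3 and 2 in siYAP against NC, and 11 and 0 in GAS5 against siYAP. The share of all transcripts was not computed under that filter or without a filter. These counts and splits thus have no background beside them. Fewer transcripts are compared under the stricter filter by construction.

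No paired analysis was possible because only a mean per group and transcript was at hand, so the replicate block and leaving out each library in turn were not run. Depth limited the members little, apart from PSMB10 and PSMG4, the least covered of the 46 at 155 to 346 counts.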

Other observations

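The ETS core CCGGAAG, searched on both strands, was present in 16 of 51 member promoters (31.4%) and in 10.3% of all promoters. Members with it had a median log2 of -0.14 in siYAP against NC (15 genes), and members without it -0.02 (25 genes). The genes with it were POMP, PSMA6, PSMA8, PSMC1, PSMC2, PSMC6, PSMD6, PSMD7, PSMD8, PSMD9, PSMD12, PSMD13, PSMD14, PSME4, PSMF1 and PSMG4. Their log2 fold changes in siYAP against NC ran from -0.54 to 0.23. POMP (0.07), PSMA6 (0.11), PSMD9 (0.23) and PSMF1 (0.03) were above NC there, and the other compared genes with it were below. The core of the site bound by TEAD factors, the DNA-binding partners of YAP, is GGAATG. It was present in 6 of 51 member promoters (11.8%), beside 14.0% of all promoters, and the members with it (PSMA4, PSMB5, PSMC5, PSMC6, PSME2 and PSME3) had a median log2 of 0.00 in siYAP against NC, compared with -0.10 in the 34 others. These medians were not tested.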
